A study of Mus musculus with 8 samples.

Results

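The nuclear genes of the mitochondrial respiratory chain were examined in dissected heart tissue, the outflow tract with the right ventricle (OFT/RV), of mouse embryos with normal or reduced Isl1. The members were the gene symbols that name subunits of complexes I to V (Nduf genes of the a, b, c, s and v series, Cox4 to Cox8, Uqcr, Sdha to Sdhd, and Atp5 genes), with 1 transcript kept per symbol. There were 82 members among 20701 symbols. Of these, 33 belonged to complex I, 4 to complex II, 8 to complex III, 19 to complex IV and 15 to complex V. Ndufa4 was counted with complex IV, where its protein is now placed, and its relative Ndufa4l2 was kept apart. Atp5s and Atp5sl match the naming rule but are not subunits of the enzyme and were also kept apart.

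Polyadenylated RNA came from single C57BL/6 embryos at E10.5, and no embryos were pooled. The 4 CTRL embryos were labelled wild type, and the 4 Isl1_hypo embryos carried the hypomorphic Isl1 allele, in which a neo cassette lowers expression, on both chromosomes (Isl1 f;neo/f;neo). These mice die soon after birth, and the allele acts in every cell that uses Isl1. The labels give neither litter nor sex, so p-values measure only the spread between these embryos.

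Complexes I to IV pass electrons from NADH or succinate to oxygen and, apart from complex II, pump protons, and complex V (ATP synthase) uses the proton gradient to make ATP. Most subunits are encoded in the nucleus and a minority in mitochondrial DNA. Several small subunits of cytochrome c oxidase (complex IV) exist as a muscle form and a ubiquitous form. In heart, the muscle forms Cox6a2, Cox7a1 and Cox8b are known to replace the ubiquitous forms Cox6a1, Cox7a2 and Cox8a in the course of development.

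In CPM (counts scaled to the size of each library), Isl1 measured 29.6, 61.5, 46.2 and 51.3 in the CTRL libraries, given here and below in the order of their replicate numbers. In Isl1_hypo it measured 12.7, 6.86, 7.71 and 11.4. It fell by 2.29 on the log2 scale (SE 0.26, edgeR adjusted p = 0.0077), which matches the labels. Library totals were 29748458 to 46678973 counts in CTRL and 18422245 to 33050298 in Isl1_hypo. The 16 cardiomyocyte markers were all present, and their summed level was 48240 to 58770 CPM in CTRL and 52260 to 62580 CPM in Isl1_hypo, with a median log2 difference of 0.0081 and 0 genes at an adjusted p under 0.05. The members of this list went both ways. At an unadjusted p under 0.05, 3 of 16 were lower, where 6.17% of all genes were. These were the myosin heavy chains Myh7 (−0.49) and Myh6 (−0.31) and myoglobin, Mb (−0.45). Phospholamban, Pln (0.45), was the 1 that was higher, where 5.69% of all genes were. Myh7 was lower without overlap, where 4.44% of all genes were, and Pln higher without overlap, where 4.06% were. Globins made up 0.212% to 1.19% of the counts in CTRL and 1.18% to 2.44% in Isl1_hypo, and all 10 erythroid markers lay higher in Isl1_hypo, with a median log2 difference of 1.69 (1 of them, Epb42, passed the test at adjusted p = 0.0172). The part of blood RNA in the values below was not tested. In bulk tissue, fewer cells of a type and less RNA per cell cannot be told apart.

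No respiratory chain gene passed the test between the groups. Of the 80 members with enough counts for the edgeR quasi-likelihood test, 0 had an adjusted p under 0.05, against 37 of all 13769 genes (0.269%). The lowest adjusted p of a member was 0.288, for Cox4i2. With DESeq2, 0 members passed, against 2.32% of all genes, and the lowest adjusted p was 0.142, also for Cox4i2. At an unadjusted p under 0.05, 3 members were higher (Ndufs3, Ndufb4 and Ndufv1) where the rate over all genes was 5.69%, and 1 was lower (Cox4i2) where it was 6.17%. In this edgeR fit both counts are below the rates over all genes. With limma-voom and a quality weight for each library, 11 members had an unadjusted p under 0.05, 5 higher (6.25%, against 6.71% of all genes) and 6 lower (7.5%, against 6.94%), close to the rates over all genes.

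The intervals limit how large a difference could have been missed. The median half-width of the 95% interval was 0.30 on the log2 scale for members and 0.40 for all genes tested. For 64 of 80 members (80%) the interval lay within a 1.5-fold change in both directions, and for 78 (97.5%) within a 2-fold change. Over all genes these shares were 47.5% and 74.5%. The widest interval belonged to Cox7b2, a minor isoform with 4 to 28 counts per library.

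More estimates lay above 0 than below. Of the 80 members, 58 had a log2 fold change above 0 (72.5%, against 50.9% of all genes), and their median was 0.10 against 0.0057 for all genes. By complex the medians were 0.17 for complex I (27 of 33 above 0), 0.16 for complex II (3 of 4), 0.085 for complex III (7 of 8), 0.028 for complex IV (11 of 18) and 0.022 for complex V (9 of 14). The estimates ran from −0.58 (Atp5l) to 0.39 (Ndufb4). These medians rested on single libraries and on the method: the median over members was 0.015 without CTRL replicate 1, and the median of complex I was 0.043 without Isl1_hypo replicate 3, where that of complex II was 0.045. Without CTRL replicate 1 the median of complex III was 0.0105 and that of complex IV −0.028. Without CTRL replicate 4 the medians were higher, at 0.14 over members, 0.234 for complex I and 0.124 for complex III. They were then 0.0735 for complex IV and 0.0815 for complex V. With limma-voom and a quality weight for each library, the median was 0.017 over members, 0.029 for complex I, 0.026 for complex II, −0.0075 for complex III, −0.0034 for complex IV and 0.044 for complex V.

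**Figure D1:**
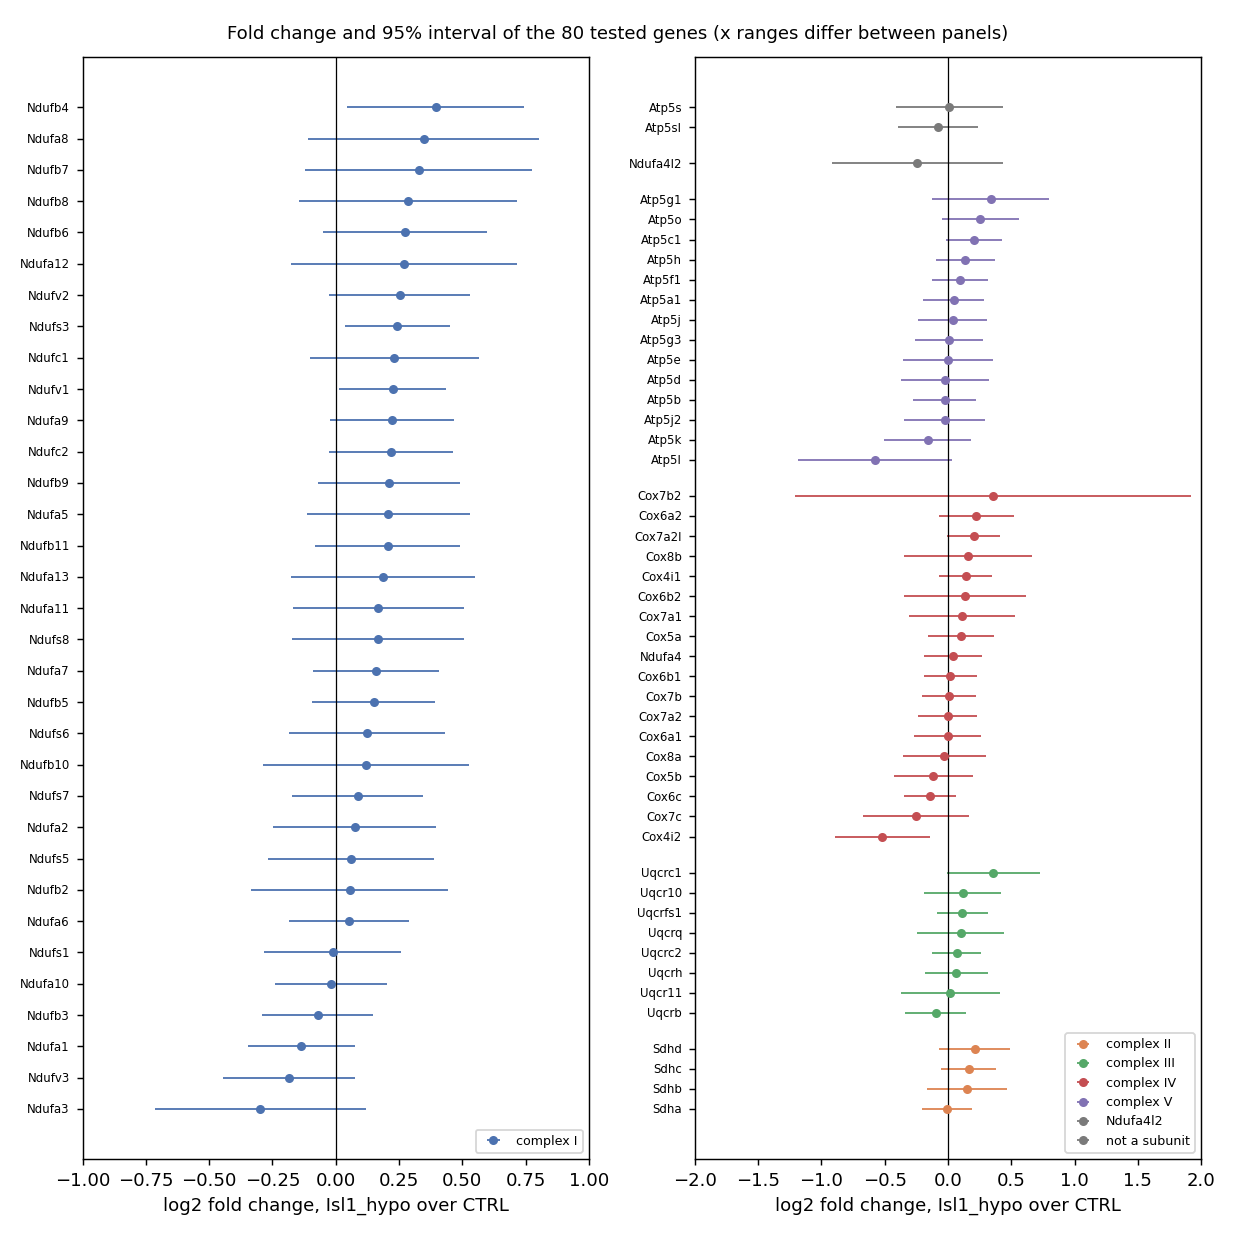
Log2 fold change of Isl1_hypo over CTRL (x axis) with its 95% interval for each of the 80 tested genes (rows), complex I on the left and the other genes on the right, sorted within each complex. Most points lie within 0.4 of 0, and the widest interval is that of Cox7b2.

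In all 8 libraries together, the members took a similar share of the counts. They made up 3.44%, 3.78%, 3.79% and 3.96% of the counts in CTRL replicates 1 to 4 (3.74% ± 0.219, SD, n = 4) and 3.73%, 3.77%, 4.02% and 3.94% in the Isl1_hypo replicates (3.87% ± 0.138). CTRL replicate 1 was the lowest library and Isl1_hypo replicate 3 the highest, and the groups overlapped. CTRL replicate 1 held the lowest value of 60 of the 80 members, and Isl1_hypo replicate 3 the highest value of 49.

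These extreme libraries also stood apart from the rest over all genes. The slope of log2 CPM on log2 transcript length was 0.119 in CTRL replicate 1 and −0.108 in Isl1_hypo replicate 3, and between −0.0282 and 0.0314 in the other libraries. The members are short, with a median of 701 bases against 2924 for all genes tested. With the length trend of each library removed, the medians were 0.169 for complex I, 0.104 for complex II, 0.086 for complex III, 0.068 for complex IV and 0.066 for complex V. Within the members, the 40 shorter and the 40 longer ones moved alike in Isl1_hypo replicate 3, by 0.30 and 0.25 relative to the CTRL mean.

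Isl1_hypo replicate 3 did not shift all complexes equally. Relative to the CTRL mean, its mean log2 level was 0.43 for complex I, 0.34 for complex II and 0.33 for complex III, but 0.091 for complex IV and 0.094 for complex V. The other 3 Isl1_hypo libraries averaged 0.034, 0.051, 0.0064, 0.014 and 0.0062 for complexes I to V. Against those 3 libraries, 32 of 33 complex I genes, all 4 complex II genes and all 8 complex III genes were higher in replicate 3. The differences reached 0.89 for Ndufa12, 0.84 for Ndufa8 and Ndufb7, and 0.75 for Uqcrc1. In the same library, 5 of 14 complex V genes and 7 of 18 complex IV genes were lower, with Atp5d at −0.54, Cox7c at −0.48, Atp5b at −0.43, Cox8a at −0.36, Cox6a2 at −0.33 and Atp5a1 at −0.29. The other 9 of complex V and 11 of complex IV were higher, among them Cox8b at 0.73, Cox7b2 at 0.71, Cox7a1 at 0.69 and Atp5g1 at 0.61. The split ran between complexes I to III and a part of complexes IV and V of 1 embryo, and it has no replicate.

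CTRL replicate 1 was low in all 5 complexes. Against the other 3 CTRL libraries, the median was −0.35 for complex I, −0.26 for complex II, −0.27 for complex III, −0.23 for complex IV and −0.38 for complex V. In complex V, 13 of 14 genes were lower there, and Atp5b was the exception at 0.049.

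**Figure D2:**
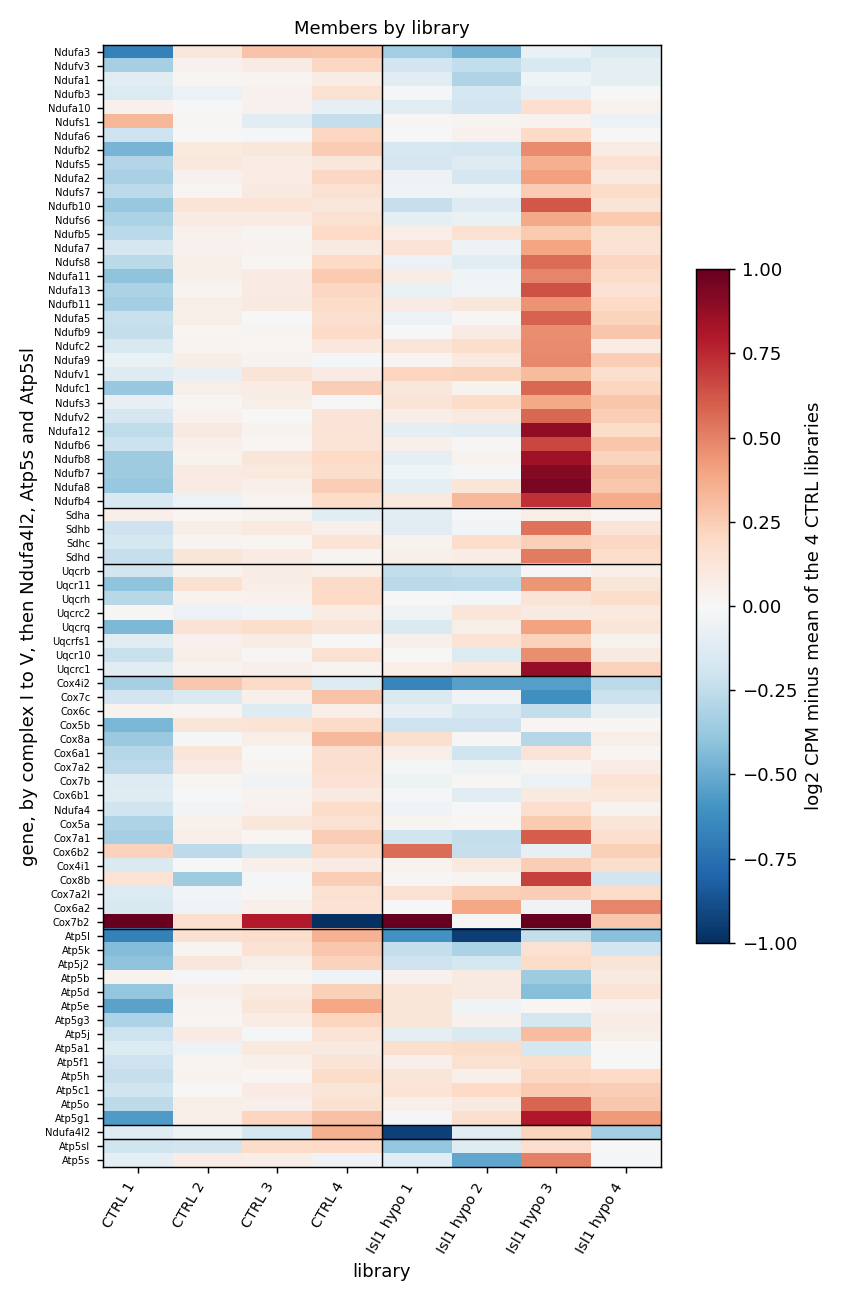
Log2 CPM of each tested gene (rows, by complex) in each of the 8 libraries (columns) minus the mean of the 4 CTRL libraries. Colours stop at 1 in either direction, CTRL replicate 1 is mostly blue, and Isl1_hypo replicate 3 is red for complexes I to III and mixed for complexes IV and V.

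**Figure D3:**
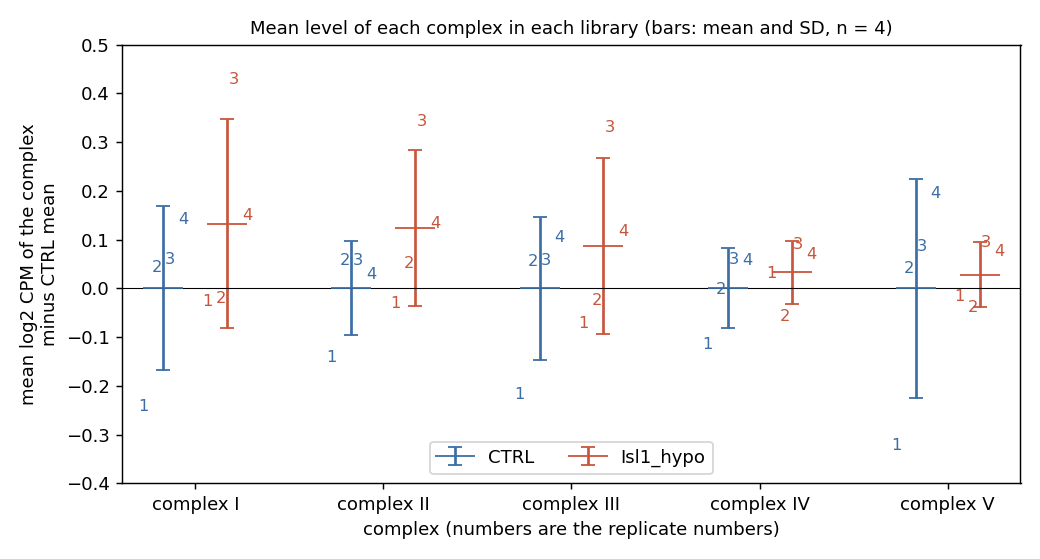
Mean log2 CPM of each complex in each library minus the CTRL mean (y axis), by complex (x axis), with digits for the replicates and bars for the mean and SD of the 4 libraries of a group. Isl1_hypo replicate 3 is at 0.43 for complex I and at 0.094 for complex V, and the groups overlap in every complex.

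Complex I, the NADH dehydrogenase, held all 3 members that were higher at an unadjusted p under 0.05. Ndufs3 (mm9, chr2:90734791-90744984) encodes a core subunit of the arm that carries the iron-sulfur clusters. It measured 91.6, 98.2, 101 and 97.04 CPM in CTRL and 106, 110, 126 and 117 CPM in Isl1_hypo. All Isl1_hypo libraries lay above all CTRL libraries, by a log2 fold change of 0.24 (95% interval 0.037 to 0.45, edgeR adjusted p = 0.334).

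Ndufv1 (chr19:4007497-4012806) encodes the core subunit that binds NADH. It measured 426, 442, 510 and 493 CPM in CTRL and 540, 544, 580 and 521 CPM in Isl1_hypo, and the groups did not overlap. The log2 fold change was 0.22 (95% interval 0.013 to 0.44, edgeR adjusted p = 0.391).

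Ndufb4 (chr16:37647256-37654539), an accessory subunit of the membrane arm, had the largest estimate of the complex. It measured 17.1, 18.3, 19.4 and 21.7 CPM in CTRL and 20.4, 23.8, 31.6 and 24.7 CPM in Isl1_hypo. The groups overlapped at replicate 1 of Isl1_hypo, and the log2 fold change was 0.39 (95% interval 0.046 to 0.74, edgeR adjusted p = 0.351). Without Isl1_hypo replicate 3 it was 0.27.

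Among the 6 complex I genes below 0, the lowest p-values were those of the accessory subunits Ndufa3, Ndufv3 and Ndufa1. Ndufa3 measured 135, 232, 262 and 260 CPM in CTRL and 169, 155, 205 and 194 CPM in Isl1_hypo, a log2 difference of −0.30 (95% interval −0.71 to 0.12). CTRL replicate 1 lay below all Isl1_hypo libraries, and the other CTRL libraries above them. Ndufv3 measured 246, 320, 328 and 358 CPM in CTRL and 271, 261, 279 and 289.9 CPM in Isl1_hypo, a log2 difference of −0.18 (95% interval −0.44 to 0.076). Ndufa1 measured 156, 171, 172 and 178 CPM in CTRL and 157, 137, 164 and 158 CPM in Isl1_hypo, a log2 difference of −0.14 (95% interval −0.35 to 0.074). In both genes CTRL replicate 1 was the library that overlapped with Isl1_hypo. Without that library Ndufa3 was at −0.48 and Ndufv3 at −0.29, and with the length trend removed Ndufa3 was at −0.048. Ndufa1 was at −0.089 without Isl1_hypo replicate 2, and Ndufv3 at −0.11 without CTRL replicate 4.

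Complex II (succinate dehydrogenase) also belongs to the tricarboxylic acid cycle and is encoded wholly in the nucleus. Its catalytic flavoprotein gene Sdha was nearly level, at 918, 899, 908 and 826 CPM in CTRL and 825, 878, 929 and 899 CPM in Isl1_hypo. The log2 fold change of Sdha was −0.0080 (95% interval −0.21 to 0.19). The iron-sulfur subunit Sdhb measured 575, 694, 711 and 690 CPM in CTRL and 618, 652, 969 and 726 CPM in Isl1_hypo. Its log2 fold change was 0.15 (95% interval −0.16 to 0.47), and without Isl1_hypo replicate 3 it was −0.0045. The membrane anchors Sdhd and Sdhc had the lowest p-values of the complex. Sdhd measured 564, 721, 699 and 673 CPM in CTRL and 685, 695, 950.1 and 749 CPM in Isl1_hypo, a log2 difference of 0.21 (95% interval −0.069 to 0.49). Sdhc measured 548, 631, 627 and 683 CPM in CTRL and 636, 702, 732 and 717 CPM in Isl1_hypo, a log2 difference of 0.16 (95% interval −0.056 to 0.38). The groups overlapped in all 4 genes of the complex. Sdhd was at 0.095 without Isl1_hypo replicate 3 and at 0.14 without CTRL replicate 1, and Sdhc was at 0.10 without CTRL replicate 1.

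Complex III (cytochrome bc1) contains the core proteins Uqcrc1 and Uqcrc2 and the Rieske iron-sulfur protein Uqcrfs1. Uqcrc1 (chr9:108838661-108851685) measured 1040, 1154, 1163 and 1143 CPM in CTRL and 1174, 1210, 2067 and 1315 CPM in Isl1_hypo. The groups did not overlap, but replicate 3 was far above the other Isl1_hypo libraries. The log2 fold change was 0.36 (95% interval −0.0092 to 0.72, edgeR adjusted p = 0.434) and 0.13 without that library. Its partner core protein Uqcrc2 differed by 0.070, with values of 686 to 749 CPM in CTRL and 698 to 776 CPM in Isl1_hypo. Uqcrfs1 measured 615, 685, 699 and 666 CPM in CTRL and 691, 732, 779 and 683 CPM in Isl1_hypo, a log2 difference of 0.11 (95% interval −0.089 to 0.32). The small subunit Uqcr10 measured 359.7, 437, 424 and 467 CPM in CTRL and 419, 383, 581 and 447 CPM in Isl1_hypo, a log2 difference of 0.12 (95% interval −0.19 to 0.42). Uqcrb was the 1 member of the complex below 0, at 99.8, 116, 119 and 119 CPM in CTRL and 95.6, 97.1, 114 and 119 CPM in Isl1_hypo, a log2 difference of −0.095. The groups overlapped in these 3 genes. Without Isl1_hypo replicate 3, Uqcrfs1 was at 0.075 and Uqcr10 at −0.019. Without CTRL replicate 1, Uqcrfs1 was at 0.073, Uqcr10 at 0.042 and Uqcrb at −0.16. Uqcrb was at −0.049 without Isl1_hypo replicate 1.

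In complex IV, Cox4i2 was the member with the lowest p-value of all. Cox4i2 (chr2:152579909-152590773) encodes the second isoform of subunit 4, known from lung and from vascular mural cells, and Cox4i1 the ubiquitous isoform. Cox4i2 measured 16.8, 25.5, 24.2 and 19.3 CPM in CTRL and 13.4, 14.5, 14.4 and 17.6 CPM in Isl1_hypo. Only CTRL replicate 1 and Isl1_hypo replicate 4 overlapped. The log2 fold change was −0.52 (95% interval −0.89 to −0.14, edgeR adjusted p = 0.288), a ratio of 0.699, and over all alternatives tried it ran from −0.62 to −0.42.

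Cox4i1 measured 1139, 1266, 1308 and 1335 CPM in CTRL and 1290, 1349, 1493 and 1426 CPM in Isl1_hypo, a log2 fold change of 0.14 (95% interval −0.073 to 0.35), and 0.088 without CTRL replicate 1. Per length, Cox4i2 was 1.49%, 2.02%, 1.86% and 1.46% of the sum of both isoforms in CTRL and 1.05%, 1.09%, 0.979% and 1.25% in Isl1_hypo. All CTRL libraries were above all Isl1_hypo libraries in this share, which was 1.71% ± 0.277 and 1.09% ± 0.114 (SD, n = 4). In both groups Cox4i1 made up nearly all of the RNA of both isoforms.

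Markers of pericytes, the mural cells of small vessels, are given beside Cox4i2. The summed level of the 7 listed markers was 449 to 556 CPM in CTRL and 258 to 404 CPM in Isl1_hypo, without overlap. Of the 6 that could be tested, 3 had no overlap and were lower (Rgs5, Cspg4 and Notch3), where 4.44% of all genes were, 2 lay above 0, and none passed at an adjusted p under 0.05. Rgs5, a defining marker, measured 111, 197, 148 and 159 CPM in CTRL and 111, 50.6, 54.9 and 86.6 CPM in Isl1_hypo, a log2 difference of −1.02 (edgeR adjusted p = 0.147), with replicate 1 of both groups nearly equal. Abcc9 differed by 0.29 and Kcnj8 by 0.70, and Higd1b, another defining marker, was at 0 in 7 libraries and at 1 count in the other. The part of mural cells in the Cox4i2 values was not tested. The 8 genes of the low oxygen response, to which Cox4i2 and Ndufa4l2 are known to belong in other tissues, had a median of −0.038, and 0 had an unadjusted p under 0.05.

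Ndufa4l2, also known from mural cells and from low oxygen, was rare. It measured 3.62, 3.79, 3.48 and 5.02 CPM in CTRL and 2.06, 3.64, 4.58 and 3.11 CPM in Isl1_hypo. The groups overlapped, with a log2 fold change of −0.24 (95% interval −0.92 to 0.43) that ran from −0.43 without Isl1_hypo replicate 3 to −0.075 without Isl1_hypo replicate 1. Ndufa4 itself measured 534 to 695 CPM in CTRL and 598 to 688 CPM in Isl1_hypo, a log2 difference of 0.038.

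The muscle isoforms of complex IV were the minor forms at E10.5, and no difference between the groups was detected. Cox6a2 (chr7:135348950-135349880) measured 120, 130, 139 and 148 CPM in CTRL and 135, 175, 131 and 188 CPM in Isl1_hypo. Replicates 2 and 4 of Isl1_hypo were above all CTRL libraries, and replicates 1 and 3 were among them. The log2 fold change was 0.23 (95% interval −0.069 to 0.52, edgeR adjusted p = 0.533), and 0.13 without Isl1_hypo replicate 4.

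Cox7a1 (chr7:30969190-30971047) measured 53.4, 70.4, 68.2 and 79.8 CPM in CTRL and 58.4, 57.1, 102 and 75.6 CPM in Isl1_hypo. Its log2 fold change was 0.11 (95% interval −0.31 to 0.53), and it turned to −0.093 without Isl1_hypo replicate 3. Cox8b (chr7:148084842-148086345) measured 9.09, 6.47, 8.17 and 9.81 CPM in CTRL and 8.36, 8.43, 13.3 and 7.30 CPM in Isl1_hypo. Its log2 fold change was 0.16 (95% interval −0.35 to 0.67), and it turned to −0.063 without the same library.

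The ubiquitous partners were nearly level. Cox6a1 differed by −0.0025 (95% interval −0.27 to 0.26), Cox7a2 by −0.0014 (−0.24 to 0.23) and Cox8a by −0.027 (−0.35 to 0.30). Per length, the muscle form made up 14.5% ± 1.06 of Cox6a2 and Cox6a1 together in CTRL and 16.6% ± 3.54 in Isl1_hypo (SD, n = 4). For Cox7a1 and Cox7a2 it was 20.4% ± 0.749 and 21.5% ± 4.36. For Cox8b and Cox8a it was 1.67% ± 0.432 and 1.91% ± 0.831. On the log2 scale the ratio to the partner was most alike between CTRL embryos for Cox7a1 (SD 0.066, against 0.12 for Cox6a2 and 0.36 for Cox8b), and the Cox7a1 share of Isl1_hypo replicate 3 stood out at 27.6% against 18.3% to 21.5% in the other Isl1_hypo libraries.

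The muscle forms differed in how far they lay below their partners. In CTRL, the log2 ratio per length to the ubiquitous partner was −5.92 for Cox8b, −2.56 for Cox6a2 and −1.97 for Cox7a1, and in Isl1_hypo it was −5.77, −2.35 and −1.89. In every library Cox8b was the muscle form furthest below its partner. Scaled to 1000 CPM of cardiomyocyte markers, Cox6a2 was 2.45 ± 0.14 in CTRL and 2.77 ± 0.31 in Isl1_hypo, Cox7a1 1.23 ± 0.13 and 1.32 ± 0.43, and Cox8b 0.154 ± 0.033 and 0.169 ± 0.060 (SD, n = 4). The groups overlapped for each. Actc1 alone was 17690 of the 48240 CPM of these markers in CTRL replicate 1 and 27060 of 62580 CPM in Isl1_hypo replicate 4. The sum also holds Myh7, which differed by −0.49.

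**Figure D4:**
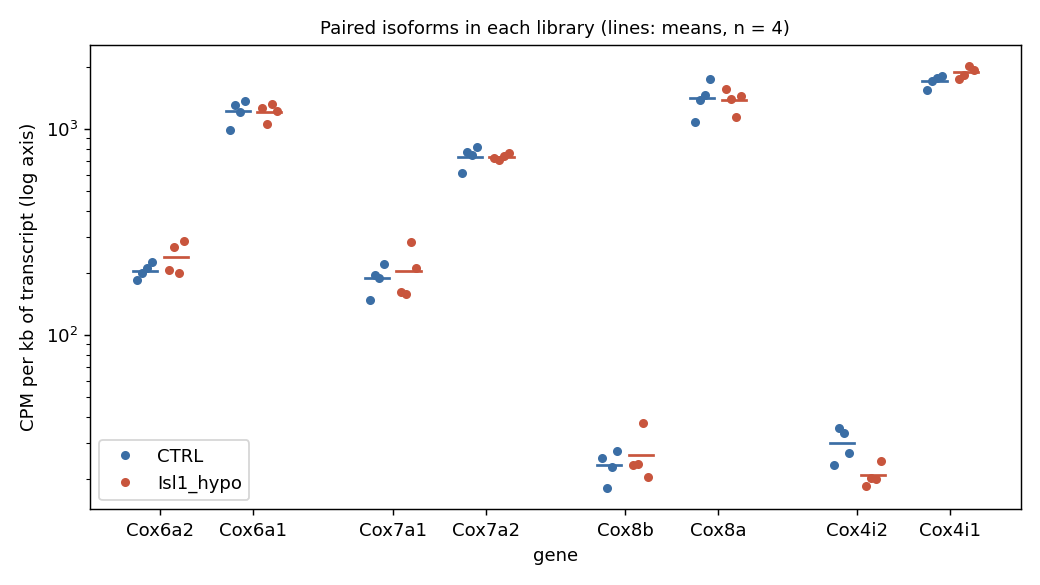
CPM per kb of transcript (y axis, log scale) of 4 isoform pairs of complex IV (x axis) in the 4 CTRL and 4 Isl1_hypo libraries, each point a library and each line a mean. In each pair the first isoform is the lower one in every library, and Cox4i2 is the one whose Isl1_hypo points lie mostly below CTRL.

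The other isoforms of complex IV known mainly from testis were low or absent. Cox6b2 made up 0.805% ± 0.159 of Cox6b2 and Cox6b1 together in CTRL and 0.872% ± 0.219 in Isl1_hypo (SD, n = 4). Cox7b2 had 26, 17, 26 and 4 counts in CTRL and 15, 10, 28 and 13 in Isl1_hypo, while its partner Cox7b measured 396 to 480 CPM. Cox8c had 0 counts in all 8 libraries, and a count of 0 allows up to 3 counts per library.

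Of the remaining complex IV genes, Cox7a2l did not overlap between the groups. It measured 96.97, 105, 108 and 119.0 CPM in CTRL and 119.0, 126, 127 and 121 CPM in Isl1_hypo. CTRL replicate 4 and Isl1_hypo replicate 1 were nearly equal, and the log2 fold change was 0.20 (95% interval −0.0050 to 0.41, edgeR adjusted p = 0.434). Cox6c measured 255.9, 254, 228 and 261 CPM in CTRL and 236, 223, 210.3 and 237 CPM in Isl1_hypo, a log2 difference of −0.14 (95% interval −0.34 to 0.061). Cox7c measured 9.98, 10.33, 11.8 and 13.9 CPM in CTRL and 10.32, 11.2, 7.46 and 9.82 CPM in Isl1_hypo, a log2 difference of −0.25 (95% interval −0.67 to 0.16). The groups overlapped in both, and Cox7c was at −0.14 without Isl1_hypo replicate 3 and at −0.15 without CTRL replicate 4.

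In complex V the alpha and beta subunits were level. Atp5b (chr10:127520329-127527447), the beta subunit and the member with the highest level, measured 5501, 5315, 5441 and 5203 CPM in CTRL and 5517, 5697, 4197 and 5700 CPM in Isl1_hypo. Replicate 3 was the low library, and the log2 fold change was −0.024 (95% interval −0.27 to 0.23). The alpha subunit Atp5a1 differed by 0.044 (95% interval −0.20 to 0.29). The gamma subunit Atp5c1, the rotating shaft, measured 848, 968, 1028 and 1060 CPM in CTRL and 1068, 1118, 1164 and 1153 CPM in Isl1_hypo, without overlap. Its log2 fold change was 0.21 (95% interval −0.012 to 0.42, edgeR adjusted p = 0.449). Atp5o, a subunit of the stalk, measured 608, 762, 757 and 810.2 CPM in CTRL and 757, 776, 1094 and 879 CPM in Isl1_hypo, a log2 difference of 0.26 (95% interval −0.046 to 0.56). Atp5g1, which encodes the c-subunit of the ring, measured 34.4, 53.6, 59.1 and 62.4 CPM in CTRL and 50.2, 57.0, 88.8 and 68.5 CPM in Isl1_hypo, a log2 difference of 0.34 (95% interval −0.12 to 0.80). In both genes Isl1_hypo replicate 3 was the highest library and the groups overlapped. Without that library Atp5o was at 0.13 and Atp5g1 at 0.16, and Atp5g1 was at 0.18 without CTRL replicate 1. Atp5l (chr9:44721333-44728825), a small membrane subunit, had the most negative estimate of all members, −0.58 (95% interval −1.18 to 0.030, edgeR adjusted p = 0.447). It measured 3.87, 6.86, 7.003 and 7.89 CPM in CTRL and 4.07, 3.22, 5.25 and 4.64 CPM in Isl1_hypo, with CTRL replicate 1 among the Isl1_hypo values. Atp5k, another small membrane subunit, measured 72.9, 100.4, 109 and 119 CPM in CTRL and 83.6, 79.5, 109.5 and 86.7 CPM in Isl1_hypo, a log2 difference of −0.16 (95% interval −0.50 to 0.18). The estimate of Atp5k turned to 0.17 with the length trend removed, and it ran from −0.29 without CTRL replicate 1 to −0.069 without CTRL replicate 4.

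In all, 5 members had no overlap and were higher in Isl1_hypo (Ndufs3, Ndufv1, Uqcrc1, Cox7a2l and Atp5c1), where 4.06% of all genes did so. None had no overlap and was lower, where 4.44% of all genes did so.

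Levels per length differed far more between members than between groups. In CPM per kb, Atp5b stood highest with a mean of 2873 in CTRL and 2827 in Isl1_hypo, and its 8 libraries (2248 to 3053) lay above those of every other member. Cox6b1 (1759 to 2058) and Cox4i1 (1545 to 2025) came next and overlapped each other, followed by Cox8a (1081 to 1744) and Atp5a1 (1173 to 1504), which also overlapped. The median level over both groups was 374 CPM per kb for complex I, 562 for complex II, 534 for complex III, 331 for complex IV and 762 for complex V. Among the constitutive subunits the lowest levels were those of Atp5g2 at 0.415, Atp5l at 10.53 and Cox7c at 23.9 CPM per kb, and Ndufb4 was next at 49.3.

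Several of these low members have exact copies elsewhere in the genome. Reads that match several places can be lost or shared, and the handling of such reads is not given in the sources used here. For each member, the 50-base stretches of its mm9 transcript were searched for exact matches outside its own gene. All of the stretches of Atp5g2 (100%), 89.4% of those of Atp5l and 80% of those of Ndufs5 matched elsewhere. The share was 73.8% for Atp5g1, 67.9% for Atp5h, 62.7% for Cox5b, 61.5% for Uqcrb and 54.3% for Cox7a2l. It was 48.2% for Cox7c, 46.8% for Ndufa12, 43% for Ndufs3 and 41.3% for Ndufb4. Of the tested members, 39 had no such stretch.

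The following stretches are shown because each occurs unchanged in the gene and in another place, so that a read lying wholly inside it matches both. The coding stretch of Atp5g2 (mm9, chr15:102496238-102496287, minus strand) also lies in the pseudogenes Gm10175 (chr7:24732164-24732213) and Gm10231 (chr17:5816553-5816602). The start of the Atp5l coding sequence (chr9:44728695-44728744, minus strand) also lies in the pseudogenes Atp5l2 (chr11:97629374-97629423) and Gm10221 (chr5:24087631-24087680). The Cox7c stretch (chr13:86185383-86185432, minus strand) lies in 3 other places, among them the pseudogene Gm12338 inside Pitpna (chr11:75413290-75413339). The Ndufs5 start (chr4:123393273-123393322, minus strand) lies in the pseudogene BC002163 inside Zbtb20 (chr16:42955744-42955793). The Cox7a2l start (chr17:83913566-83913615, minus strand) lies in the pseudogene Gm6969 (chr12:25323826-25323875). Capitals mark the first codon of the annotated coding sequence of the GENCODE transcript used, and each stretch is 50 bases long, 5′ to 3′.
Atp5g2: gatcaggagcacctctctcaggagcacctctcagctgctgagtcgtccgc
Atp5l: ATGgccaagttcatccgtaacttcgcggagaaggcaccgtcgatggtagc
Cox7c: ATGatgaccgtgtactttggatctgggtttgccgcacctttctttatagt
Ndufs5: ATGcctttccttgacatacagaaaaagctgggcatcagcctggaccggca
Cox7a2l: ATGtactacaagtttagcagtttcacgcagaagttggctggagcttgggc

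Levels did not fall steadily with the share of stretches found elsewhere. The 7 tested members with over 50% of their stretches found elsewhere had a median of 101 CPM per kb (10.53 to 249.6), the 18 with 10% to 50% a median of 459 (23.9 to 1402), and the 55 with under 10% a median of 408 (1.05 to 2850). The 4 lowest tested members with no stretch found elsewhere were Cox7b2, Ndufa4l2, Atp5s and Cox6b2. The ratio of the ATP synthase c-subunit genes is uncertain because Atp5g1 and Atp5g2 have such copies. Atp5g1 was 6.25% ± 0.688 of Atp5g1 and Atp5g3 together in CTRL and 7.92% ± 2.55 in Isl1_hypo (SD, n = 4). Atp5g2 had 6, 10, 12 and 24 counts in CTRL and 5 or 6 counts in each Isl1_hypo library, too few for the test. Atp5g3 itself had no stretch found elsewhere. The values of Ndufa12, Ndufs3, Ndufb4, Uqcrb, Cox7c, Cox7a2l and Atp5l above are uncertain likewise, while Ndufv1, Uqcrc1, Cox4i1, Cox4i2, Cox6a2, Cox7a1 and Cox8b had no stretch found elsewhere. The ubiquitous partners had some, at 21% for Cox8a, 12.3% for Cox6a1 and 4.4% for Cox7a2. The shares and ratios of the muscle forms above are uncertain to that extent.

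With the members of under 10% alone, the median log2 fold change was 0.17 for complex I (19 of 23 above 0), 0.11 for complex III (5 of 5), 0.11 for complex IV (10 of 12) and −0.010 for complex V (4 of 8). The 4 genes of complex II all had under 10%. The part of multiply matching reads in the levels was not tested.

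**Figure D5:**
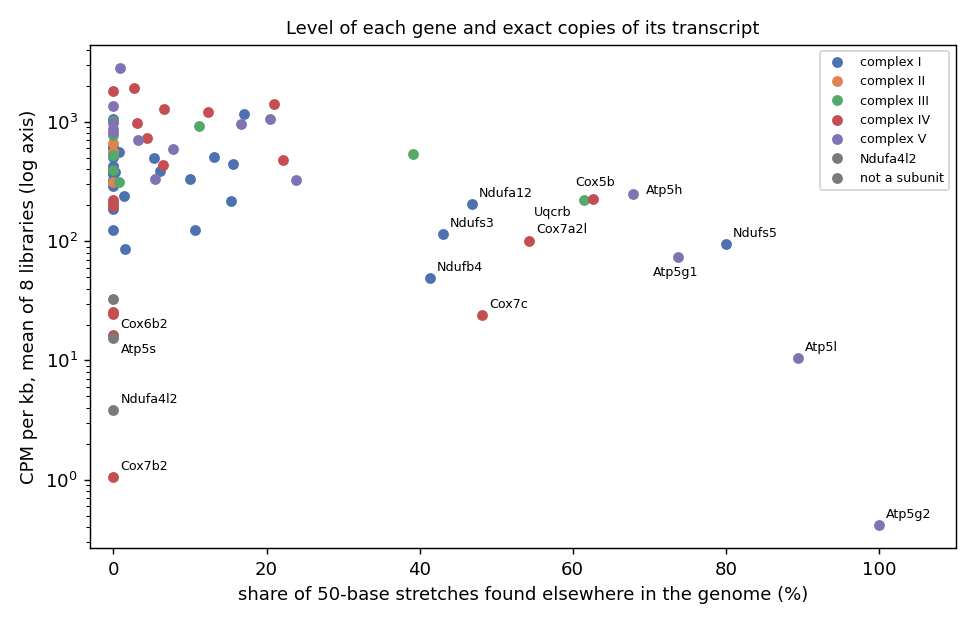
Mean level of each gene over the 8 libraries (y axis, CPM per kb, log scale) against the share of the 50-base stretches of its transcript found elsewhere in the mm9 genome (x axis, %), coloured by complex, with Cox8c at 0 counts left out. Atp5g2 at 100% and Atp5l at 89.4% lie at 0.415 and 10.53 CPM per kb, and no gene with over 50% is above 250 CPM per kb.

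The promoters of the members hold motifs known from nuclear respiratory chain genes. A RefSeq promoter (GRCm38.p6, 250 bases before to 50 after the start) was found for 68 of the 82 members, 74 promoters in all. The NRF1 motif GCGCATGC, searched on both strands, lay in 10 of the 74 (13.5%) and in 2.71% of all 32851 promoters. The YY1 motif AAGATGGC lay in 11 (14.9%, against 2.75%), the ETS motif CCGGAAGT in 5 (6.76%, against 3.89%) and the ERR motif CAAGGTCA in 4 (5.41%, against 1.56%). The MEF2 motif CTAAAAATA, known from muscle genes, lay in 0 of the 74 and in 0.517% of all promoters. The YY1 motif was found in 6 genes of complex I and 3 of complex V, in Atp5sl, and in 0 of complexes II, III and IV. The genes with the NRF1 motif were Atp5g2, Atp5k, Atp5l, Cox6a1, Ndufa6, Ndufa8, Ndufa11, Sdhb, Uqcr11 and Uqcrc1.

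The 250 bases before the start are shown for Cox6a1, the ubiquitous partner of Cox6a2 (chr5:115348959-115349208, minus strand), and for Sdhb (chr4:140961021-140961270, plus strand), as examples with the NRF1 motif, and for the muscle isoform Cox7a1 (chr7:30183921-30184170, plus strand), in which none of the 5 motifs was found. Coordinates are GRCm38.p6, and capitals mark the NRF1 motif, which overlaps its own reverse complement in Cox6a1.
Cox6a1: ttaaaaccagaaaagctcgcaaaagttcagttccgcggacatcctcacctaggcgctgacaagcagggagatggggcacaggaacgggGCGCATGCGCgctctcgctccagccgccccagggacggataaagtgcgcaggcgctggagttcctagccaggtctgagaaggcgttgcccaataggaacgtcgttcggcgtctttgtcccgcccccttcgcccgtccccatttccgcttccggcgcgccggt
Sdhb: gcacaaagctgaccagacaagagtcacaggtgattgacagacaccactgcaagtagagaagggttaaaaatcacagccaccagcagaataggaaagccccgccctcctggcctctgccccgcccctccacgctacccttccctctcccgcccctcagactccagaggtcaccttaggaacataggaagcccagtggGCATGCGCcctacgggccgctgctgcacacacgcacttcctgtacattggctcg
Cox7a1: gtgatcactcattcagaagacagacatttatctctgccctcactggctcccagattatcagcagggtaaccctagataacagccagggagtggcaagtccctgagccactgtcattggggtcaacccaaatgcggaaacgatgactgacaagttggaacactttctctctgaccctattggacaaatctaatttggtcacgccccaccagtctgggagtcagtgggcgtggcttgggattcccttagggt

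The other genes of the pathway were also without a member that passed the test. Of 15 regulators of respiratory chain genes, 5 had a log2 fold change above 0 and the median was −0.034. Ppargc1a, a coactivator of mitochondrial genes, measured 102, 72.5, 70.7 and 80.95 CPM in CTRL and 86.4, 99.7, 94.5 and 106 CPM in Isl1_hypo, a log2 difference of 0.24 (edgeR adjusted p = 0.493). Nrf1 and Gabpa, whose products bind the NRF1 and ETS motifs, differed by −0.0033 and −0.0061. Polrmt, the mitochondrial RNA polymerase, differed by −0.45, with 11.2 CPM in Isl1_hypo replicate 3 against 25.6 to 32.4 CPM in the other Isl1_hypo libraries.

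Of 44 assembly factors, 34 (77.3%, against 50.9% of all genes) were above 0 with a median of 0.13, 2 were higher at an unadjusted p under 0.05, which is below the rate of 5.69% over all genes, and 0 passed at an adjusted p under 0.05. The same extreme libraries stood out in their summed level, with 2742 CPM in CTRL replicate 1 against 3066 to 3217 CPM in the other CTRL libraries, and 3743 CPM in Isl1_hypo replicate 3 against 3055 to 3268 CPM in the other Isl1_hypo libraries. Without CTRL replicate 1 the median was 0.084 (31 of 44 above 0), and without Isl1_hypo replicate 3 it was 0.062 (30 of 44). Foxred1, needed for complex I assembly, measured 73.0, 63.9, 73.4 and 63.0 CPM in CTRL and 73.9, 89.7, 90.4 and 87.5 CPM in Isl1_hypo, a log2 difference of 0.32 (edgeR adjusted p = 0.296). Tmem70, needed for ATP synthase assembly, measured 109, 104, 99.1 and 103 CPM in CTRL and 117, 133, 128 and 111 CPM in Isl1_hypo, a log2 difference of 0.23 (edgeR adjusted p = 0.359). Both were higher without overlap, and so was Ndufaf5 (0.22). That made 3 of 44 assembly factors, where 4.06% of all genes were higher without overlap.

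Of 12 other subunits and carriers, 10 were above 0 with a median of 0.087, and 0 had an unadjusted p under 0.05. The adenine nucleotide carrier Slc25a5 differed by 0.36 and the complex III subunit Cyc1 by 0.057. Of 14 genes of the tricarboxylic acid cycle, 10 were above 0 with a median of 0.077, and 1 was higher at an unadjusted p under 0.05, which is near the rate over all genes. That gene was Idh3a, a subunit of isocitrate dehydrogenase, at 620, 673, 688 and 597 CPM in CTRL and 690, 772, 892 and 759.7 CPM in Isl1_hypo, a log2 difference of 0.27 (edgeR adjusted p = 0.333).

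Markers of other cell types are given beside these values. Of 6 endothelial markers, 5 were below 0 with a median of −0.37, and their summed level was 644 to 751 CPM in CTRL and 492 to 631 CPM in Isl1_hypo. Of 7 mesenchymal markers, 6 were below 0 with a median of −0.40, at 2715 to 4078 and 1663 to 3683 CPM in sum. Neural crest markers were near 0, with sums of at most 1.74 CPM. Of 6 epithelial markers, 3 could be tested and had a median of 0.92, and the sums were 67.9 to 115 CPM in CTRL and 124 to 302 CPM in Isl1_hypo, highest in replicate 1. The keratins Krt8 (24.7 to 44.7 and 46.1 to 92.7 CPM) and Krt18 (42.8 to 73.1 and 77.2 to 139.8 CPM) made up most of these sums. The others stood out in Isl1_hypo replicate 1 alone. Cldn6 had 708 counts there and 0 to 3 in the other Isl1_hypo libraries, Cdh1 282 against 0 to 9. For Epcam it was 181 against 10 to 54, and for Esrp1 111 against 0 to 8. No gene of these 4 lists passed at an adjusted p under 0.05, and the part of the cell mixture in the respiratory chain values was not tested.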

How the data were processed

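RNA from the OFT/RV of 4 CTRL and 4 Isl1_hypo embryos was sequenced on a BGISEQ-500. The authors aligned reads with STAR to mm9 and counted exon reads per RefSeq transcript with HOMER on both strands together, so overlapping and antisense genes cannot be told apart. The deposited values used here are raw counts, and the 31507 transcripts were listed with their lengths. The 8 columns of RPKM and the authors' comparison (mean, log2 fold change with its error, statistic and p-values from DESeq2) were not used.

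For each of the 20701 symbols the transcript with the highest mean count was kept, and 19 members had more than 1. Genes were filtered with filterByExpr, scaled by TMM and tested with the edgeR quasi-likelihood test without covariates, with Benjamini-Hochberg adjustment over 13769 genes (R 4.3.3, edgeR 4.0.16). The filter kept 80 of the 82 members. It left out Atp5g2 and Cox8c. The SE is the log2 fold change divided by the square root of F. CPM was taken over TMM-scaled totals, with 2 as the prior count of its log2 form. Total counts set the precision, and counting error is only part of the spread between embryos. The script was tested on simulated data with known changes.

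Members and gene lists were chosen with earlier results of these data known. Any member could be named. Full values were given for the isoform sets and for up to 3 members per direction in each complex with the lowest p. Genes of the lists were named by the same rule, in part, and Nrf1, Gabpa, Cyc1 and Higd1b after their values were seen. Isoform shares have no test. Coordinates are from GENCODE vM1 (mm9). The search for copies of 50 bases was added after the levels had been seen, and so were the values of single libraries against the rest of their group. Alternatives were RLE and upper-quartile factors, DESeq2 1.42.0, limma-voom with sample quality weights (limma 3.58.1), no filter, at least 10 counts in every library, the longest transcript, a block for the replicate number, removal of the length trend (loess, span 0.5) and leaving out each library. Another 2 genes whose symbols match the naming rule are not reported here and are in no count of members.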

Additional observations from a re-analysis of the deposited data

Results flagged for a closer look

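Among 100 groups of 4 libraries examined, 6 had a library far from the others, where chance gives about 5. CTRL replicate 1 was low in 5 of them. Its log2 CPM was 9.17 for Sdhb against 9.43 to 9.47 in the other CTRL libraries, 10.02 for Uqcrc1 against 10.16 to 10.18, and 6.64 for Uqcrb against 6.86 to 6.90. In the same library the mean of complex II was −0.143 relative to the CTRL mean, against 0.028 to 0.058, and that of complex III was −0.218, against 0.056 to 0.105. In Isl1_hypo replicate 3, Atp5b was low, at a log2 CPM of 12.04 against 12.43 to 12.48 in the other Isl1_hypo libraries.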

How the results depend on the processing

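No respiratory chain gene had an adjusted p under 0.05 with edgeR under any alternative, with DESeq2 or with limma-voom, which was run with a quality weight for each library, so the method and the weights changed together. At an unadjusted p under 0.05 there were 4 members with edgeR, 7 with DESeq2 and 11 with limma-voom, where 11.9%, 13.2% and 13.7% of all genes were called. The number of all genes with an adjusted p under 0.05 was 37, against 319 with DESeq2, 134 with limma-voom and 0 with the replicate block (1582 at an unadjusted p under 0.05). It ran from 4 without CTRL replicate 3 to 48 without Isl1_hypo replicate 3, and was 8 without CTRL replicate 1, 5 without CTRL replicate 2, 12 without Isl1_hypo replicate 2 and 11 without Isl1_hypo replicate 4. Members higher at an unadjusted p under 0.05 numbered 6 with DESeq2 (7.5%, against 6.22% of all genes) and 5 with limma-voom (6.25%, against 6.71%), and from 0 (without CTRL replicate 1 or 2, against 5.03% and 4.21%) to 6 (without Isl1_hypo replicate 1, 7.5% against 6.49%) when 1 library was left out. Members lower numbered 6 with limma-voom (7.5%, against 6.94%), and from 1 to 6 (without CTRL replicate 1, 7.5% against 5.12%) when 1 library was left out, with 2 without Isl1_hypo replicate 3 (2.5%, against 5.92%). The cause was not tested.

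The replicate number did not pair the embryos. The correlations of same-numbered libraries were 0.0189, −0.0209, 0.013 and 0.0219, and they were not each other's best match in 3 of 4 cases. With the replicate block, Isl1 was at −2.29 with an adjusted p of 0.0722, Cox6a1 at 0.00294 and Cox7a2 at 0.00626, and 3 members were higher and 1 lower at an unadjusted p under 0.05, as without it.

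Some estimates changed sign. With limma-voom, Cox7a1 was −0.114, Cox8a 0.019, Ndufa4 −0.0136, Cox6b1 −0.0285, Sdhb −0.0214, Uqcr10 −0.0306 and Atp5b 0.0518. With upper-quartile factors Atp5g3 was −0.00555. With the length trend removed, Cox6a1 was 0.0316, Cox8a 0.0114, Atp5g3 −0.0144, Sdha 0.0328 and Atp5k 0.17. When 1 library was left out, Cox7a1 ran from −0.0928 to 0.207, Cox8b from −0.063 to 0.263, Cox6a1 from −0.0938 to 0.0551, Cox7a2 from −0.0866 to 0.0511, Cox8a from −0.14 to 0.0891, Ndufa4 from −0.0292 to 0.101, Cox6b1 from −0.0261 to 0.0515, Cox6b2 from −0.0278 to 0.239, Atp5g3 from −0.0892 to 0.0804, Sdha from −0.0417 to 0.0222, Sdhb from −0.00445 to 0.229, Uqcr10 from −0.0191 to 0.187 and Atp5b from −0.0671 to 0.0715. The medians of complexes IV and V reached −0.0276 and −0.0246 without CTRL replicate 1. With 4 embryos per group, Cox7b2, with at most 28 counts per library, and Atp5l had intervals beyond a 2-fold change.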
